A study of Homo sapiens with 6 samples.

Results

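UCHL1 and 9 other genes typical of neuronal cells were described in the transcriptome of cells labelled as AGS, 10 of the 58174 genes of the deposited table. The 9 others were NEFL, NEFM, NEFH, INA, STMN2, GAL, GAP43, ELAVL4 and CHGA. The genes were chosen by name with their mean TPM values in these same libraries known, so those values are given as a description and no test was made on them. AGS is a cell line established from a human gastric adenocarcinoma. Total RNA was sequenced from 3 libraries titled si-NC, for a negative control siRNA, and 3 libraries titled si-FTO, for an siRNA against the RNA demethylase FTO. Both siRNAs were transfected with a lipid reagent, Lipofectamine, as the methods state. As genotype, the labels state FTO-/- for the si-FTO libraries and wild type for the others, which differs from a transient knockdown, and the group means could not tell which description holds. Nor could they tell whether both groups are the same cell line, or whether both are AGS, a doubt raised by lineage genes that were high in 1 group and far lower in the other. UCHL1 had 303 TPM in si-NC against 0.0204 TPM in si-FTO, whereas the keratin gene KRT8 had 10.8 against 3139 TPM and the adhesion gene L1CAM 0.836 against 117 TPM. Epithelial genes did not all go with KRT8. KRT18 did, at 52.1 against 1851 TPM, but CDH1 had 3.67 against 0.685 TPM and EPCAM 1.22 against 0.113 TPM. All of these examples were picked after their values were seen. Each ratio here therefore compares the libraries by their labels, and an effect of the siRNA and a difference between the cells used cannot be told apart. Expression is given as TPM, a measure that corrects for transcript length and scales each library to a fixed total, so levels of different genes can be set side by side on this scale. Each group has 1 value per gene, the authors' mean over its libraries. From these means no error between libraries, no depth and no test could be computed, and the p-values and q-values that the authors deposited were not used. Means of all genes summed to 999970 TPM in si-NC against 999957 TPM in si-FTO.

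UCHL1 encodes an enzyme that removes ubiquitin from short peptides and is among the most abundant proteins of neurons and neuroendocrine cells. NEFL, NEFM, NEFH and INA encode subunits of neurofilaments, the intermediate filaments that fill axons. STMN2 and GAP43 act on the cytoskeleton and membrane of the growing axon, ELAVL4 is an RNA-binding protein that stabilises neuronal messages, and GAL and CHGA are cargo of the dense-core vesicles from which peptide hormones are released. In the stomach, such genes are typical of enteric neurons and of endocrine cells, and are not markers of the surface epithelium.

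FTO itself had a mean of 33.1 TPM in si-NC against 7.27 TPM in si-FTO, 4.56-fold lower. On the scale used below, the log2 ratio of mean TPM plus a pseudocount of 1, si-FTO over si-NC, this was -2.05. The pseudocount understates the difference of low genes. The deposited value 0.0001 was read as 0, and such a gene is said to be listed at 0. Genes with a mean of at least 0.5 TPM in at least 1 group were compared, 20493 in all, and a gene whose log2 ratio was 1 or more in size, in either direction, is called past the fold. The median log2 ratio of the compared genes was -0.20, and the median ratio of the genes above 0 in both groups, used to rescale the groups as an alternative, was -0.21.

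Of the 10 neuronal-type genes, 5 were lower in si-FTO past the fold, beside 17.0% of all compared genes, and 1 was higher, beside 11.4%. The choice of the genes used this contrast, so nothing is read from these counts. Of the remaining genes, GAL and CHGA were compared and not past the fold, and STMN2 and ELAVL4 were too low to be compared. In si-FTO 6 of the 10 were listed at 0, against 1 in si-NC, beside 29534 and 26830 of all 58174 genes. Of the 8 compared ones 4 were listed at 0 in si-FTO and 0 in si-NC, beside 5.52% and 2.19% of all compared genes. Summed over the 10 genes, the level was 698 TPM in si-NC against 408 TPM in si-FTO. GAL made up most of the second sum: without it, the sums were 429 TPM and 13.2 TPM. In bulk RNA, fewer cells of a type and less RNA per cell cannot be told apart.

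**Figure D1:**
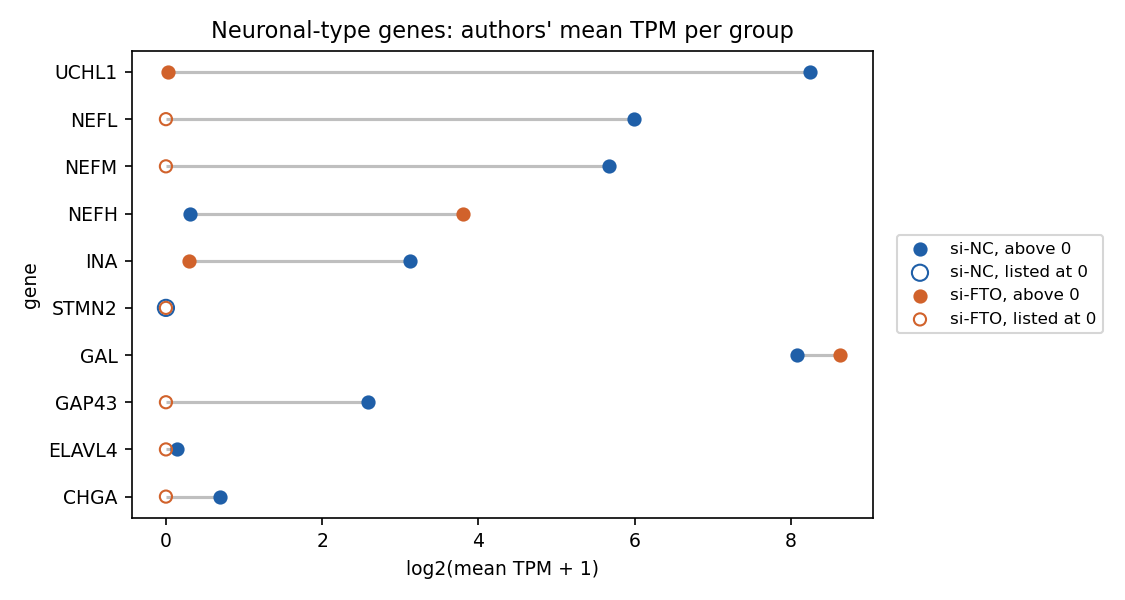
Mean TPM of the 10 neuronal-type genes in si-NC (blue) and si-FTO (orange), on the horizontal axis as log2(mean TPM + 1), with open circles for genes listed at 0. Each point is the authors' mean of a group, without error. UCHL1, at 303 TPM in si-NC, has the longest line, NEFH runs the other way, and GAL is high in both groups.

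UCHL1 (ENSG00000154277), the deubiquitinating enzyme, had a mean of 303 TPM in si-NC against 0.0204 TPM in si-FTO, with a log2 ratio of -8.22. By level it stood at rank 430 of all genes in si-NC and at rank 26625 in si-FTO. Its log2 ratio was the third lowest among the compared genes. A level of this order in si-NC was rarely paired with a level near 0 in si-FTO: of the 1569 genes with at least 100 TPM in si-NC, 7 were below 0.1 TPM in si-FTO.

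The light and medium neurofilament subunits, which form the body of the filament, were next. NEFL had 62.7 TPM in si-NC and was listed at 0 in si-FTO, and NEFM had 49.9 TPM and was likewise listed at 0. INA, alpha-internexin, a subunit that assembles with them, had 7.72 TPM in si-NC against 0.224 TPM in si-FTO, with a log2 ratio of -2.83. The heavy subunit went the other way. NEFH, whose long tail domain projects from the filament and spaces it from its neighbours, had 0.242 TPM in si-NC against 13.0 TPM in si-FTO, with a log2 ratio of 3.49. The neurofilament subunits thus differed in direction, and in neither group were the light, medium and heavy subunits all above 1 TPM.

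Of the genes of the growing axon, GAP43, a growth cone protein that binds calmodulin, had 5.01 TPM in si-NC and was listed at 0 in si-FTO. STMN2, which binds tubulin dimers and destabilises microtubules, was listed at 0 in both groups. ELAVL4, the RNA-binding protein also known as HuD, had 0.105 TPM in si-NC and was listed at 0 in si-FTO. These 2 genes lay under the minimum of 0.5 TPM, while CHGA lay just above it in si-NC. CHGA, chromogranin A, a core protein of dense-core vesicles and a marker of endocrine cells, had 0.620 TPM in si-NC and was listed at 0 in si-FTO. A defining endocrine marker was therefore close to 0 in the group where UCHL1 was abundant.

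GAL, the precursor of the peptide galanin, was the exception in level. It had 269 TPM in si-NC against 395 TPM in si-FTO, with a log2 ratio of 0.55. By level it ranked 496 among the si-NC values and 321 among those of si-FTO. In si-NC its level was close to that of UCHL1, and in si-FTO it was the only 1 of the 10 genes above 100 TPM.

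**Figure D2:**
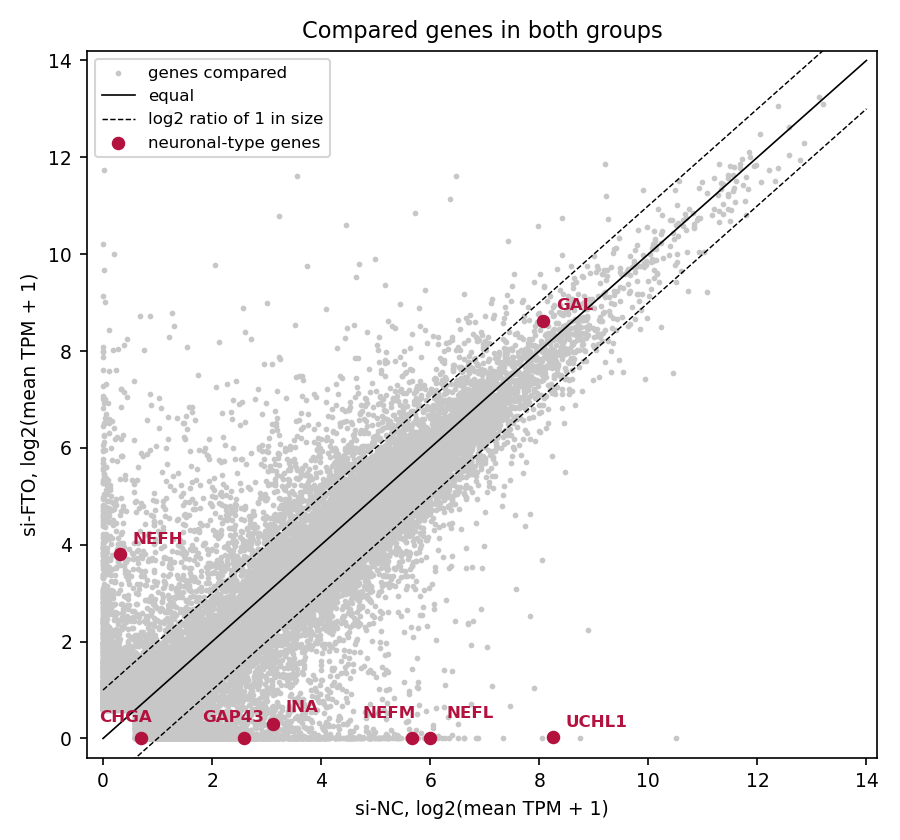
All 20493 compared genes (grey), si-NC on the horizontal and si-FTO on the vertical axis, both as log2(mean TPM + 1), with the solid line at equal values and dashed lines at a log2 ratio of 1 in size. The 8 compared neuronal-type genes are in red: UCHL1, NEFL, NEFM, INA, GAP43 and CHGA lie along the bottom edge, NEFH near the left edge and GAL between the dashed lines.

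The promoters of UCHL1, INA and GAP43 are shown because these genes were lower past the fold and have a single entry each in the promoter table. The sequences are from RefSeq, build GRCh38.p14, and run from 250 bases before to 50 bases after the annotated start, 5′ to 3′, with CpG dinucleotides in capitals. Of the 10 genes, 5 matched an entry: UCHL1, INA, GAP43, CHGA and ELAVL4, the last with 7 entries. UCHL1 is chr4:41256678-41256977, INA is chr10:103276888-103277187 and GAP43 is chr3:115623260-115623559, all on the + strand.
UCHL1: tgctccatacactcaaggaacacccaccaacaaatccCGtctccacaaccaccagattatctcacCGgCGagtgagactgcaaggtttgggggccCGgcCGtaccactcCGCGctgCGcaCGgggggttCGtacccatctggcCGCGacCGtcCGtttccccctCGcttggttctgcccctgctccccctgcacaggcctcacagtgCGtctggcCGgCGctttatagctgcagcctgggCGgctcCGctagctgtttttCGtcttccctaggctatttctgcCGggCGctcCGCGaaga
INA: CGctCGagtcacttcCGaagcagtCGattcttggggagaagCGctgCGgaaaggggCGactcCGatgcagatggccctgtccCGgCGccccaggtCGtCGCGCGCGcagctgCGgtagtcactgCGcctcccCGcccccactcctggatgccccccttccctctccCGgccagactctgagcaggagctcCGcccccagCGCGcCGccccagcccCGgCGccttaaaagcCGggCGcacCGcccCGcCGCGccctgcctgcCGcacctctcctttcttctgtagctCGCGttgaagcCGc
GAP43: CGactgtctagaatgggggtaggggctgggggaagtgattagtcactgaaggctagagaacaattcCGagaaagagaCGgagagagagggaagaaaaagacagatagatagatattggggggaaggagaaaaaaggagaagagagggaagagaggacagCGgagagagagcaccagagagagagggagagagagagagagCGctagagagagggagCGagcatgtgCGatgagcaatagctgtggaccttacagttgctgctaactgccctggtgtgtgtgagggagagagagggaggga

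These promoters were unlike in CpG content, and a relation of CpG content to the log2 ratios was not tested. The UCHL1 promoter holds 25 CpG dinucleotides, with 0.870 of the number that its C and G content would give, and INA holds 35, with 0.958. GAP43 holds 7, with 0.509. The median of all 34796 distinct promoters was 14 CpG dinucleotides and a ratio of 0.578. CHGA holds 24, with a ratio of 0.678.

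Short motifs were sought on both strands of the same windows. GGGCGG, the GC box, is in 44.9% of all promoters and was found in those of UCHL1, INA and CHGA, with 4 copies in INA. TATAA is in 20.5% of all promoters and was found in those of UCHL1, where it lies on the opposite strand, in that of CHGA and in 3 of the 7 entries of ELAVL4. TGACGTCA, the cyclic AMP response element, is in 1.84% of promoters and was found in CHGA. GGACAGC, a core of the element that the repressor REST binds, is in 6.02% of promoters and was found in GAP43, whereas CAGCACC, the other core, is in 7.74% and was found in no entry of the 5 genes. A match of letters is a description and shows no binding. GGGCGG and TGACGTCA each contain a CpG dinucleotide, and none of the motifs contains another.

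Because FTO removes methyl groups from adenosine in RNA, the motif GGACU, a preferred context of that modification, was counted in the annotated main transcript of each gene. Among 14134 compared coding genes, 91.0% held the motif, and the median was 0.936 per kilobase. UCHL1 has a short transcript of 1103 nucleotides with 2 copies, 1.81 per kilobase, a density above that of 87.5% of the coding genes. NEFM had 1.22 and NEFH 1.05 per kilobase, and a relation of this density to the log2 ratios was not tested. NEFL had 0.279 and INA 0.308 per kilobase. CHGA had 0.504, STMN2 0.525 and ELAVL4 0.757 per kilobase, all below the median. GAL and GAP43 held none. The motif count is a property of the reference sequence and no methylation was measured here.

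Families and lists of related genes and of cell type markers follow. They were chosen with earlier results of these data known, so their counts are given as a description. Among all compared genes, 17.0% were lower and 11.4% higher past the fold. UCHL1 belongs to a family of 4 ubiquitin C-terminal hydrolases, of which 2 were lower past the fold, UCHL1 itself and UCHL3. UCHL3, its closest relative, which is found in most tissues, had 130 TPM in si-NC against 41.4 TPM in si-FTO, with a log2 ratio of -1.62. The proteasome-bound UCHL5 had 73.8 and 64.7 TPM, and the tumour suppressor BAP1 had 92.2 and 64.2 TPM. The family's median log2 ratio, UCHL1 included, was -1.07, and its sums were 598 and 170 TPM. UCHL1 was chosen with this contrast known, so neither value is read as a result of the family. Of the others, only UCHL3 was past the fold, and BAP1 and UCHL5 had log2 ratios of -0.52 and -0.19. The 3 broadly expressed members were thus all above 40 TPM in both groups, and UCHL1 alone was near 0 in si-FTO.

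Of 10 intermediate filament genes outside the keratins, all compared, 4 were lower past the fold and 2 higher, with a median log2 ratio of -0.10. Under quantile normalization 4 were higher, which ends the difference between the counts. NEFL, NEFM, INA and NEFH are among the genes chosen with this contrast known, so nothing is read from these counts or the median. Outside them, only PRPH, peripherin of peripheral neurons, was lower past the fold, at 3.81 TPM in si-NC against 0.210 TPM in si-FTO. SYNM, synemin, a filament protein of muscle, was higher with NEFH, at 3.94 and 19.2 TPM. VIM, vimentin, typical of mesenchymal cells, was the most abundant, at 440 TPM in si-NC against 752 TPM in si-FTO, and the list summed to 573 and 792 TPM.

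Stathmins bind tubulin. STMN3, a neuronal member, had 65.6 TPM in si-NC against 0.220 TPM in si-FTO, with a log2 ratio of -5.77. STMN1, the member of dividing cells, had 360 TPM in si-NC against 372 TPM in si-FTO, and STMN4 had 0.0515 TPM in si-NC and was listed at 0 in si-FTO. Of the 4 stathmins 2 were compared, with 1 lower and 0 higher past the fold and a median log2 ratio of -2.86, and they summed to 426 and 372 TPM.

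All 5 genes of GAP43 and its membrane-bound relatives were compared, and 4 were lower past the fold and 1 was higher, with a median of -1.58. GAP43, chosen with this contrast known, is in these values. Among its relatives NRGN, MARCKSL1 and MARCKS were lower and BASP1 was higher past the fold. NRGN, neurogranin, a calmodulin-binding protein of neurons, had 48.8 TPM in si-NC against 3.94 TPM in si-FTO. MARCKSL1 had 506 and 169 TPM, and MARCKS, like it a substrate of protein kinase C, had 82.9 and 29.4 TPM. BASP1, a growth cone protein of the same kind as GAP43, went the other way, with 30.9 TPM in si-NC against 956 TPM in si-FTO, with a log2 ratio of 4.91. With it the sum of the 5 genes was 674 TPM in si-NC against 1158 TPM in si-FTO, although 4 were lower. The counting of BASP1 and MARCKSL1 is uncertain where processed copies share their reads, which was not measured.

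Of the 4 ELAV genes 2 were compared, with 1 lower and 0 higher past the fold and a median of -1.91, and they summed to 89.1 and 52.8 TPM. ELAVL2, a neuronal member, had 8.63 TPM in si-NC against 0.0356 TPM in si-FTO, with a log2 ratio of -3.22. ELAVL1, the member found in all tissues, had 80.3 and 52.7 TPM. ELAVL3, another neuronal member, had 2.4e-05 TPM in si-NC and was listed at 0 in si-FTO. In this family, as among the stathmins, only 2 genes were compared. The widely expressed gene was not past the fold and the neuronal one was, whereas UCHL3, also widely expressed, was lower past the fold.

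**Figure D3:**
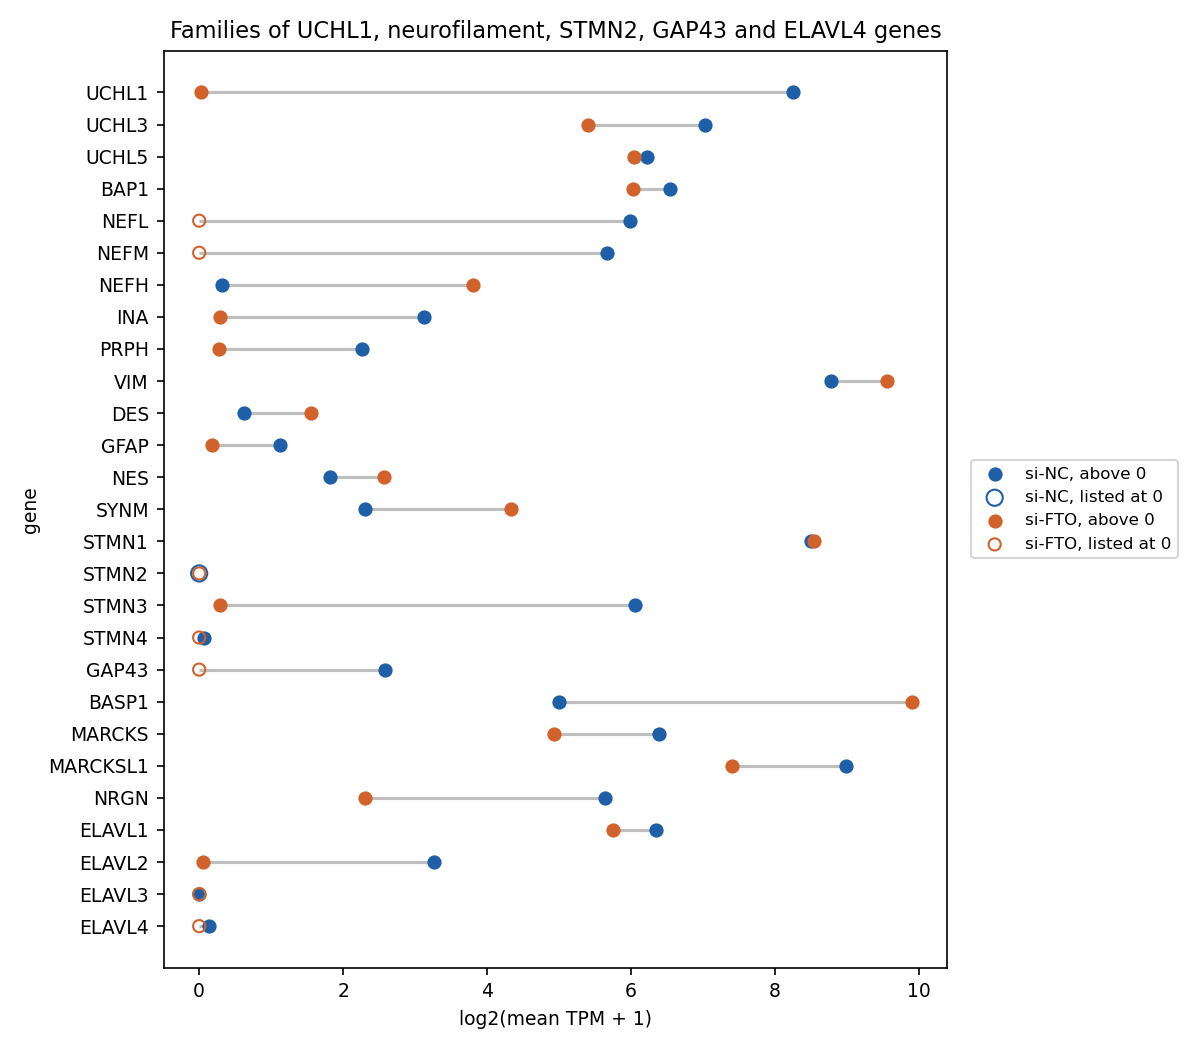
Mean TPM of the families of UCHL1, the neurofilament genes, STMN2, GAP43 and ELAVL4, as log2(mean TPM + 1), in si-NC (blue) and si-FTO (orange), with open circles for genes listed at 0. Each family joins genes near 0 in si-FTO, such as UCHL1, STMN3 and ELAVL2, with genes of similar level in both groups, such as STMN1 at 360 and 372 TPM, or, as in BASP1 at 30.9 and 956 TPM, with the opposite direction.

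The vesicle genes around CHGA and GAL were mixed. Of 11 granins and dense-core vesicle genes, 7 were compared, 2 were lower and 3 higher past the fold, and the median log2 ratio was 0.53, with sums of 176 and 117 TPM. The order of these counts changed with the pseudocount, the minimum level and the fold. PCSK1N, an inhibitor of the processing enzyme PCSK1, had 46.9 TPM in si-NC and was listed at 0 in si-FTO. PCSK1 itself, which cleaves prohormones, had 0.0175 TPM in si-NC against 6.66 TPM in si-FTO. CPE, which trims the cleaved peptides and was the most abundant gene of the list in si-NC, had 80.1 and 10.4 TPM, and PAM, which amidates them, had 47.4 and 96.1 TPM. SCG2, secretogranin II, had 0.0860 and 2.47 TPM. The inhibitor and its enzyme thus stood in opposite groups.

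Galanin and its receptors are 5 genes, of which 2 were compared and 0 were past the fold in either direction, with a median of 0.34. GALR2 had 0.396 TPM in si-NC against 0.527 TPM in si-FTO, and GALR3 had 0.203 TPM in si-NC and was listed at 0 in si-FTO. GALR1 and GALP, a related peptide, were listed at 0 in both. The RNA of the galanin precursor was therefore far more abundant than that of its receptors. Among 18 other neuropeptide genes 8 were compared, with 4 lower and 0 higher past the fold, beside 17.0% and 11.4% of all compared genes. The median of the 8 was -1.33, and 9 of the 18 were listed at 0 in both groups. The 18 genes summed to 88.5 TPM in si-NC against 9.28 TPM in si-FTO. CALCB, a calcitonin gene-related peptide, had 37.1 TPM in si-NC and was listed at 0 in si-FTO. NMU, neuromedin U, had 19.3 and 0.331 TPM, and NMB, neuromedin B, had 24.7 and 6.11 TPM. NPY, neuropeptide Y, had 2.16 TPM in si-NC and was listed at 0 in si-FTO.

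Of 14 neuronal cytoskeleton genes 13 were compared, with a median log2 ratio of -2.21. Of the 13, 9 were lower and 1 was higher past the fold, beside 17.0% and 11.4% of all compared genes. The 14 genes summed to 307 TPM in si-NC against 39.7 TPM in si-FTO. TUBB2B, a tubulin of developing neurons and the most abundant of these in si-NC, had 130 and 2.73 TPM. TUBB2A, a nearly identical tubulin chosen after its values were seen, had 108 and 10.7 TPM, and reads of these copies may have been split. DPYSL3, a growth cone protein, had 56.0 and 0.0748 TPM, and its relative CRMP1 went the other way, with 3.07 and 9.84 TPM. KIF1A, the motor that carries synaptic vesicle precursors along axons, had 15.9 TPM in si-NC and was listed at 0 in si-FTO, and MAP1B, an axonal microtubule protein, had 14.5 and 0.0531 TPM. TUBB3, the tubulin most used to stain neurons, had 10.003 TPM in si-NC against 5.73 TPM in si-FTO, not past the fold. Within the list of 14, DPYSL2, a growth cone protein, was the most abundant in si-FTO, with 10.6 TPM in both groups.

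For synaptic vesicles and release, 15 of 18 genes were compared, with a median of -1.47. Past the fold 9 were lower and 1 was higher, beside 17.0% and 11.4% of all compared genes. SV2A, a vesicle membrane protein, had 35.5 TPM in si-NC against 0.0690 TPM in si-FTO. SYP, synaptophysin, another vesicle protein, had 14.3 and 0.743 TPM. The active zone protein PCLO had 4.46 and 0.0505 TPM, and the vesicle-tethering SYN2 had 5.29 and 0.295 TPM. SNAP25, a SNARE of the plasma membrane, was the higher gene, at 0.316 TPM in si-NC against 9.72 TPM in si-FTO. VAMP2, its vesicle partner and the most abundant of these in si-NC, had 42.2 and 29.7 TPM.

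Of 11 RNA-binding and splicing regulators 8 were compared, with a median of -1.35 and sums of 863 and 594 TPM. Beside 17.0% and 11.4% of all compared genes, 5 were lower and 0 higher past the fold. NOVA1, a splicing factor of neurons, had 8.33 TPM in si-NC and was listed at 0 in si-FTO, and its relative NOVA2 had 2.68 TPM and was also listed at 0. RBFOX3, the antigen known as NeuN, had 8.34 and 0.143 TPM. CELF4, another splicing factor of neurons, had 2.81 and 0.172 TPM. PTBP1, which represses neuronal exons in other cells and was the most abundant of the list, had 715 TPM in si-NC against 523 TPM in si-FTO.

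Among 20 neurogenic transcription factors 12 were compared, with a median of -2.46 and sums of 163 TPM in si-NC against 15.8 TPM in si-FTO. Of the 12, 10 were lower and 1 was higher past the fold, beside 17.0% and 11.4% of all compared genes. POU4F1 and ISL1, factors of sensory neurons, had 32.2 and 15.7 TPM in si-NC and were listed at 0 in si-FTO. SOX2, a factor of neural progenitors, had 13.2 TPM in si-NC and was listed at 0 in si-FTO. GATA3, a factor of sympathetic neurons and of other lineages, had 22.4 and 0.890 TPM, and SOX4, the most abundant of the list, had 48.5 and 10.4 TPM. MYT1L, a factor of mature neurons, was the higher gene, with 0.0183 and 2.89 TPM.

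REST, the repressor that silences neuronal genes in other cells, had 8.49 TPM in si-NC against 7.18 TPM in si-FTO, with a log2 ratio of -0.21, close to the median of -0.20 over all compared genes. Of REST and its 12 corepressor genes, all compared, 1 was lower past the fold and 0 were higher, with a median of 0.08 and sums of 860 and 852 TPM. The lower gene was HDAC2, a histone deacetylase, at 72.7 and 31.5 TPM, and under median-ratio scaling it was not past the fold. HDAC1 was the most abundant gene of the list in si-NC, with 225 and 157 TPM, and KDM1A, a histone demethylase, the most abundant in si-FTO, with 176 and 179 TPM. Summed over the list, the levels of the repressor and its partners were thus nearly equal in both groups. Single genes differed in either direction, such as HDAC1 and, named after its values were seen, CTDSP2, at 58.2 and 95.1 TPM.

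Other neuronal surface and enzyme markers were 13 genes, of which 5 were compared, with a median of -1.46. Past the fold 3 were lower and 1 was higher, beside 17.0% and 11.4% of all compared genes. The 13 genes summed to 54.4 TPM in si-NC against 134 TPM in si-FTO, most of the second sum being L1CAM. NCAM1, an adhesion molecule and the most abundant of these in si-NC, had 16.0 TPM in si-NC against 0.0288 TPM in si-FTO. CNTN1, a contactin of axons, had 10.4 and 0.00657 TPM, and GAD1, which makes GABA, had 10.9 and 3.34 TPM. L1CAM, an adhesion molecule of axons, went the other way, with 0.836 TPM in si-NC against 117 TPM in si-FTO. TH, of the catecholamine pathway, and SLC17A6, a glutamate transporter, were listed at 0 in both groups, both chosen after their values were seen.

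The labelled cell type and other cell types were checked with marker lists. The gastric epithelium list had 14 genes, of which 7 were compared, with a median of 3.57. Of the 7, 1 was lower and 4 were higher past the fold, beside 17.0% and 11.4% of all compared genes. The list summed to 70.2 TPM in si-NC against 5117 TPM in si-FTO. KRT8 and KRT18, keratins of simple epithelia, had 10.8 and 52.1 TPM in si-NC and 3139 and 1851 TPM in si-FTO. ELF3, an epithelial transcription factor, had 0.115 and 93.3 TPM, and MUC1, a membrane mucin, 1.71 and 31.0 TPM. CDH1, the adhesion protein of epithelia, had 3.67 and 0.685 TPM, and EPCAM, another epithelial marker, chosen after its values were seen, 1.22 and 0.113 TPM. TFF1 and GKN1, secreted by the gastric surface, were listed at 0 in both groups. The difference of the sums thus lay mostly in KRT8 and KRT18, and 5 of the 14 genes reached 1 TPM in si-NC against 4 in si-FTO. The counts of KRT8 and KRT18 are uncertain where processed copies share their reads, which was not measured. The part that the difference of the sums plays in the neuronal-type genes was not tested.

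Markers of gastric endocrine cells were 13 genes, which summed to 45.4 and 9.66 TPM. The 5 compared had a median of -1.99, with 4 lower and 0 higher past the fold, beside 17.0% and 11.4% of all compared genes. PAX6, the most abundant, had 21.8 and 8.12 TPM. INSM1, a factor of endocrine differentiation, had 4.96 TPM in si-NC and was listed at 0 in si-FTO, as was NKX2-2, a further endocrine factor, with 2.99 TPM in si-NC. SYP belongs to this list too. The hormones GAST and SST, gastrin and somatostatin, which define the main hormone cells, were listed at 0 in both groups.

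Glial markers summed to 3.69 TPM in si-NC against 5.62 TPM in si-FTO, with 3 of 8 compared, 0 lower, 1 higher and a median of -0.78. MBP, a myelin protein, was the most abundant, at 1.20 and 5.13 TPM, and the defining markers S100B and SOX10 were listed at 0 in both. GFAP had 1.17 and 0.136 TPM, and AQP4 had 0.712 TPM in si-NC and was listed at 0 in si-FTO. Both were lower but not past the fold, and were named after their values were seen. The direction of the glial counts turned with a pseudocount of 0.1 and with 0.0001 kept, to 2 lower and 1 higher under either. Fibroblast markers summed to 16.0 and 46.7 TPM, with 6 of 7 compared, 1 lower, 3 higher and a median of 0.92. COL1A1, a collagen chain, was the most abundant, at 10.3 and 36.4 TPM. PDGFRB, a growth factor receptor, had 0.370 and 5.34 TPM, and FAP, a fibroblast surface protease, was listed at 0 in si-NC and had 1.23 TPM in si-FTO. COL3A1, another collagen chain, was the lower gene, at 2.18 and 0.361 TPM, and under quantile normalization it was not past the fold. Of 7 leukocyte and endothelial markers, 6 were found and 2 were compared, with 1 lower and 1 higher past the fold, and 0 lower under either scaling. The higher gene was CDH5, an endothelial cadherin, at 0.00827 TPM in si-NC against 40.9 TPM in si-FTO. PTPRC, present on all leukocytes, was listed at 0 in both.

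The 16 genes that every cell uses were all compared, and none was listed at 0. Their lowest level was 38.1 TPM in si-NC against 22.5 TPM in si-FTO. With 1 lower past the fold, HPRT1 at 224 and 96.5 TPM, and 0 higher, the median was 0.27. Under median-ratio scaling 0 were lower and 3 higher. EEF1A1 was the most abundant in si-NC at 6103 TPM and GAPDH in si-FTO at 8518 TPM. Genes of this kind are expressed in every cell, so the absence of 0 among them says nothing about the zeros of the neuronal-type genes.

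**Figure D4:**
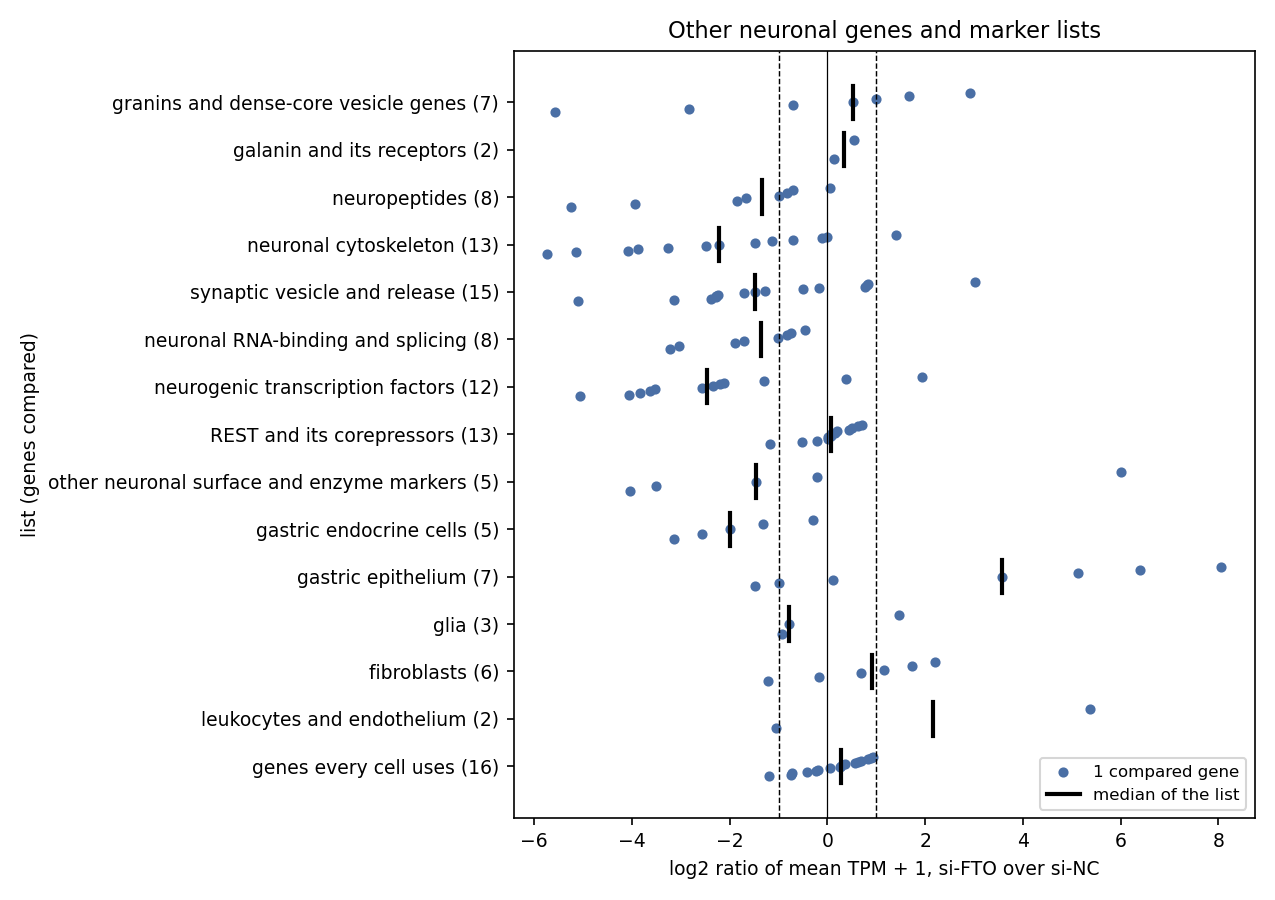
Log2 ratios of mean TPM + 1, si-FTO over si-NC, for the compared genes of the other lists, with black bars at the median and dashed lines at 1 in size; the number of compared genes is in brackets. Neuronal cytoskeleton, synaptic, RNA-binding and transcription factor genes have medians from -2.46 to -1.35, REST and its corepressors 0.08 and gastric epithelium 3.57. Granins and dense-core vesicle genes have a median of 0.53 and galanin and its receptors 0.34. The lists were chosen with earlier results of these data known. For genes every cell uses, the direction of the counts flipped under median-ratio scaling.

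The genes whose pair of levels lay nearest to that of UCHL1 were found by the Euclidean distance between log2(mean TPM + 1) over the 2 group means. They were ENSG00000261409, at a distance of 0.206, with 263 TPM in si-NC but listed at 0 in si-FTO, and IRS4, an insulin receptor substrate, at 0.494, with 427 TPM and listed at 0. RP6-24A23.6, which overlaps IRS4, followed at 0.917, with 160.0 TPM and listed at 0, so that its value is uncertain. ID2, an inhibitor of basic helix-loop-helix factors, lay at 1.01, with 175 and 0.584 TPM, and CITED1, a transcriptional co-regulator, at 1.07, with 240 and 1.06 TPM. The distance rests on 2 values per gene, and none of these 5 is on the lists of neuronal genes.

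The genes beside UCHL1 were examined by position. In GRCh37 with the GENCODE annotation, UCHL1 lies on chromosome 4 from 41258430 to 41270472. Of the nearest 5 compared genes on each side, 0 were lower past the fold and 3 were higher, with a median log2 ratio of -0.25. On one side the nearest compared gene, APBB2, had 20.8 TPM in si-NC against 13.7 TPM in si-FTO, and further off on that side RBM47 had 4.86 and 16.3 TPM and CHRNA9 0.292 and 25.8 TPM. On the other side LIMCH1 had 7.26 and 72.2 TPM, and SLC30A9, the farthest of the 5, had 35.8 and 17.4 TPM, a difference just short of the fold because of the pseudocount. Counts of neighbours were made with the pseudocount of 1 only. These neighbours were named after their values were seen. UCHL1-DT, on the opposite strand across the UCHL1 start, was listed at 0 in both groups.

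NEFM and NEFL lie 31856 bases apart and share their 10 neighbours, whose median was -0.05, with 2 lower and 1 higher. The neighbours of NEFH had a median of -0.24 with 0 lower and 1 higher, and those of INA 0.01 with 3 lower and 0 higher. Around GAP43 the median was -0.23 with 2 lower and 1 higher, around CHGA -0.02 with 1 lower and 0 higher, and around ELAVL4 -0.38 with 3 lower and 0 higher. The genes around STMN2 had a median of -0.16 with 4 lower and 0 higher, although STMN2 itself was at 0 in both groups. GAL had neighbours with a median of 0.28, 0 lower and 1 higher. Of the 90 distinct neighbours 15 were lower past the fold, 16.7%, and 7 were higher, 7.78%, with a median of -0.16, beside 17.0% and 11.4% of all compared genes. The libraries were made with a stranded kit, but the strand setting of the counting is not given in the sources used here. INA overlaps NT5C2 on the opposite strand, which had 38.9 and 69.8 TPM, and NEFM overlaps ENSG00000272163, with 2.66 TPM in si-NC but listed at 0 in si-FTO, so the values of these pairs are uncertain.

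**Figure D5:**
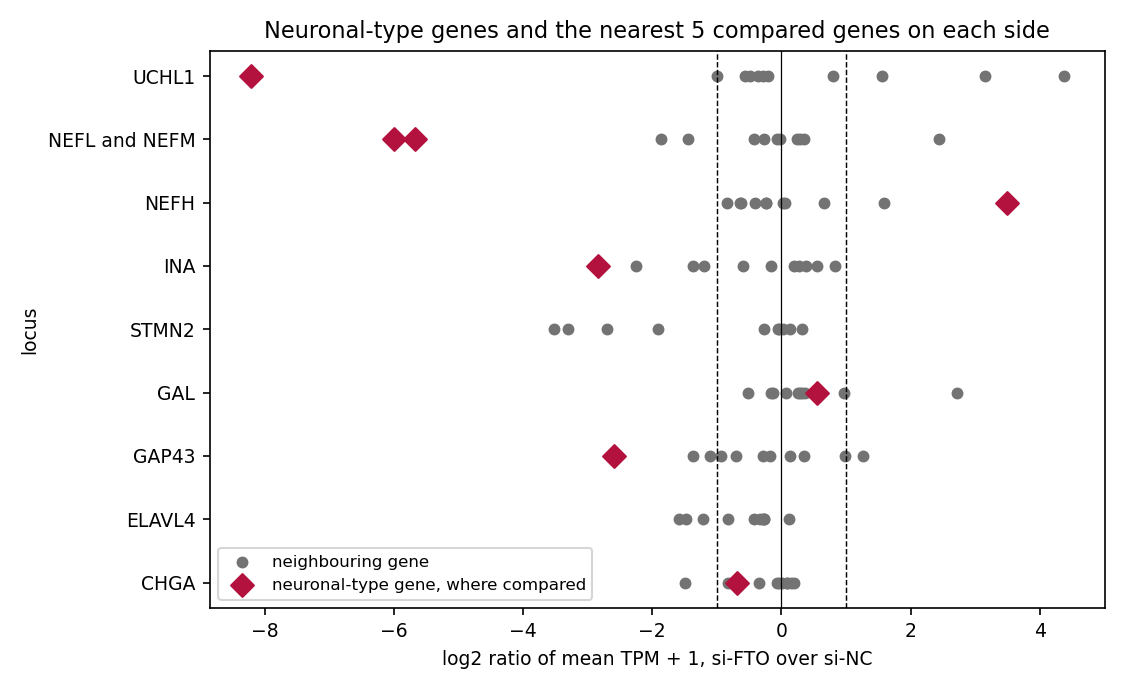
Log2 ratios of mean TPM + 1, si-FTO over si-NC, of the neuronal-type genes (red) and of the nearest 5 compared genes on each side (grey), by locus, with dashed lines at 1 in size. STMN2 and ELAVL4 were not compared and have no red point. UCHL1 is at -8.22, and 0 of its neighbours were lower past the fold, with SLC30A9 just short of it.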

How the data were processed

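Total RNA of cells labelled as AGS was sequenced from 3 si-NC and 3 si-FTO libraries, grouped by their titles. Per the labels a stranded KAPA kit was used, and per the study's methods reads were mapped to hg19 with Bowtie and quantified with RSEM, whereas the submitters' processing notes name HISAT2. The gene annotation used for counting is not given in the sources used here. The deposited values are TPM, averaged by the authors to 1 mean per group, with 0 written as 0.0001. TPM keeps no depth, so the precision of each mean is unknown. The authors' own log2 ratio, p-value and q-value columns, and a table of genes chosen with them, were not used.

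Here the log2 ratio of mean TPM (pseudocount 1) was computed for genes of at least 0.5 TPM in at least 1 group. No test was computed, as 1 mean per group holds no spread, and past the fold means 1 or more in size on this scale. Symbols matched 55726 of 58174 identifiers. PECAM1 was not matched by symbol. The settings tried besides were a minimum of 5 TPM, no filter, a pseudocount of 0.1, median-ratio scaling, quantile normalization, a log2 ratio of at least 2, and 0.0001 kept with no pseudocount.

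The 10 genes and the lists were chosen with earlier results of these data known. Lists that hold genes of the 10 count them, so their counts, medians and sums are not read as results about the other genes. Named genes were the 10 genes, FTO, REST, TUBB3, the most abundant gene of each list and up to 4 past the fold per direction with the largest log2 ratio in size, every gene of a family of 5 or fewer, and the 5 compared genes nearest UCHL1. Markers at 0 and genes named by position or overlap were chosen after their values were seen. Results of 2 genes covered by the rule are not reported here. Neighbours and transcripts come from GENCODE 44 lifted to GRCh37, and promoters from a RefSeq table of GRCh38.p14, with no coordinates converted. The calculations used Python 3.11.15, numpy 2.4.6, pandas 2.3.3 and matplotlib 3.10.9. The calls were tested on simulated data, which checks their code and is no test of the groups.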

Additional observations from a re-analysis of the deposited data

How the results depend on the processing

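No paired analysis was possible because each group has 1 mean per gene and no column carries a replicate number. For the same reason leaving out each library in turn was not run. UCHL1 and FTO were lower past the fold under each of the 7, with log2 ratios of UCHL1 from -13.85 to -8.11 and of FTO from -2.19 to -1.85. The 5 lower neuronal-type genes became 6 with a pseudocount of 0.1 and with 0.0001 kept, as CHGA passed the fold, at -2.85 and -12.60. REST had log2 ratios from -0.24 to -0.01.

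Counts that moved by more than 1.5 times follow. With a log2 ratio of at least 2, all genes lower went from 3492 to 1241 and higher from 2340 to 976. At that fold the lower counts were 1 for the UCH family, 2 each for GAP43-like genes, neuropeptides, RNA-binding genes and gastric endocrine cells, and 0 each for gastric epithelium, fibroblasts, leukocytes and endothelium, REST and its corepressors and genes every cell uses. The higher counts were 1 each for granins and fibroblasts and 0 each for cytoskeleton, transcription factors and glia. With a minimum of 5 TPM, 2254 of all genes were lower, as fewer genes were compared. The lower counts were then 5 for synaptic genes, 6 for transcription factors, 2 each for RNA-binding genes and gastric endocrine cells, and 0 each for gastric epithelium, fibroblasts, and leukocytes and endothelium, and 0 transcription factors were higher. With 0.0001 kept and no pseudocount, 5348 of all genes were lower. Both there and with a pseudocount of 0.1, the lower counts were 7 for neuropeptides and 2 each for gastric epithelium and glia, and 3 synaptic genes were higher. Under quantile normalization 4 intermediate filament genes and 3 synaptic genes were higher, and 0 each of fibroblasts and of leukocytes and endothelium were lower. Under median-ratio scaling 0 each of REST and its corepressors, leukocytes and endothelium, and genes every cell uses were lower, and 3 of the last were higher. The order of the lower and higher counts was the same in all settings for 14 of the 20 lists, among them galanin and its receptors with 0 in both directions. It turned for genes every cell uses under median-ratio scaling, for granins with a log2 ratio of at least 2, and for glia with a pseudocount of 0.1 and with 0.0001 kept. The counts became equal for granins with a pseudocount of 0.1 or with a minimum of 5 TPM, for glia and genes every cell uses with a log2 ratio of at least 2, for intermediate filaments under quantile normalization, and for REST and its corepressors under median-ratio scaling and with a log2 ratio of at least 2. Those of leukocytes and endothelium, equal at first, had more higher genes with a minimum of 5 TPM, under both scalings and with a log2 ratio of at least 2. The cause of these changes was not tested.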
